A study of Canis lupus familiaris with 23 samples.

Results

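The genes described here are 32 transcripts of dermal fibroblasts and of the connective tissue they deposit, named by symbol: fibrillar and network collagens, proteoglycans, elastic fibre proteins, and the receptors, filament protein and transcription factors that mark fibroblasts. Each was taken from the line of the count tables that bears its name. Of the 20448 entries in the tissue and expansion tables, 31 carried a member's name, and the differentiation tables listed 28 of them. TWIST1 is not analysed here. RefSeq's gene table for the dog assembly UU_Cfam_GSD_1.0 matched 31 of the 32 symbols, all but MGP.

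Dermal fibroblasts secrete type I and type III collagen, whose fibrils carry the load of the skin, and coat them with small leucine-rich proteoglycans such as decorin and lumican that set fibril spacing. Epidermis and the epithelium of the hair follicle rest on a basement membrane of type IV collagen and laminin, to which keratinocytes and fibroblasts both contribute. The hair follicle also carries its own mesenchyme, the dermal papilla and the connective tissue sheath, so that isolated follicles bring fibroblast-lineage cells with them, while a purely epithelial organoid would not.

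RNA was measured by CEL-seq2, which counts transcripts from their 3′ ends, in 23 dog libraries of 12 groups. Tissue gave 2 libraries each of whole skin, of hair follicles in mixed anagen and telogen phases, and of interfollicular epidermis, the epidermis between follicles. Organoids from hair follicles were sampled 7 days after culture, and are called early at passages 0 to 1 and later at passages 3 to 6. With a Tgf-beta inhibitor there were 3 early and 2 later libraries, and without it 2 early and 2 later. From interfollicular epidermis there was 1 early and 1 later organoid library, each grown with the inhibitor. Later follicle organoids in differentiation medium gave 2 libraries, those in that medium lacking Noggin and R-Spondin-1 gave 2, and those also lacking Forskolin gave 2. Noggin is an antagonist of BMPs, R-Spondin-1 strengthens Wnt signals, and Forskolin activates adenylyl cyclase. The labels do not say which dogs, breeds or ages were used or whether replicates were separate cultures, so p-values measure only the spread between these samples. They name no inhibitor for the differentiation groups.

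Total counts ran from 86301 in replicate 2 of interfollicular epidermis to 4822410 in an early organoid library. Levels are CPM, counts scaled to a common library size with TMM factors (trimmed mean of M values). On unscaled library totals, a count of 0 allows up to 0.626 CPM in the deepest library and 35.5 CPM in the shallowest (3 counts, counting error only). With TMM factors, 3 counts are 0.684 and 23.1 CPM there. Fold bounds for genes at 0 counts set TMM-scaled means against the unscaled floor. Changes are log2 fold changes ± SE from edgeR's quasi-likelihood test, called at a Benjamini-Hochberg adjusted p under 0.05 over all genes tested. A filter on low counts left 9888 genes, among them 28 members; COL6A2 (1 count in all libraries), BGN (3 counts) and ELN (13 counts) did not pass. Of the 28, 6 passed only through the tissue libraries: COL6A3, LAMA2, LUM, PDGFRA, PDGFRB and TWIST2. A lower level in organoids than in some tissue library was thus built into their selection, though not against each tissue. VIM carried fractional counts in 12 libraries.

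**Figure D1:**
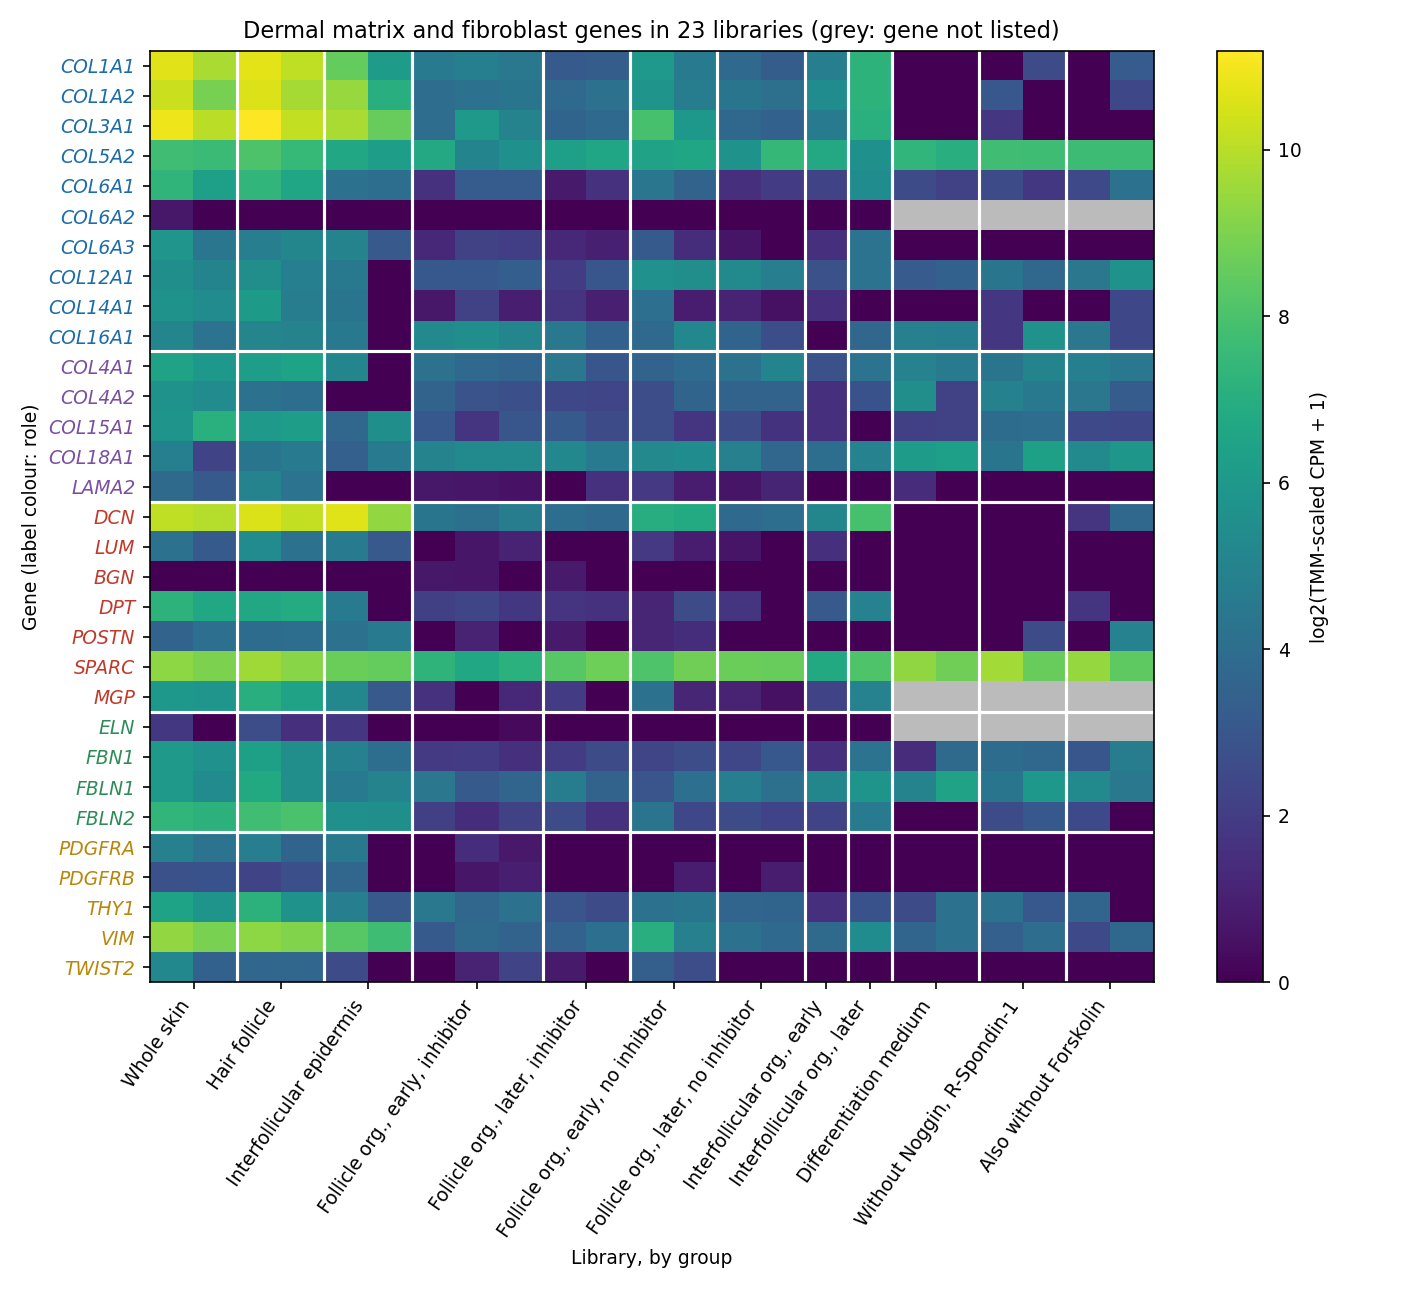
Level of each of the 31 listed genes (vertical axis, label colour by role) in each of 23 libraries (horizontal axis, by group), as log2(TMM-scaled CPM + 1); grey marks genes that the differentiation tables do not list. COL1A1, COL1A2, COL3A1 and DCN run from bright in tissue to dark in the differentiation media, while SPARC and COL5A2 are counted in every library, COL5A2 at mid-scale in some organoid libraries.

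Whole skin and hair follicles were compared first, as the reference for what fibroblast RNA the source tissue holds. COL1A1, a chain of type I collagen, stood at 1636 and 875 CPM in the 2 skin libraries and at 1686 and 1121 in the 2 follicle libraries. Its partner chain COL1A2 stood at 1236 and 469 CPM in skin and 1525 and 816 in follicles, and type III collagen, COL3A1, at 1898 and 1034 against 2330.3 and 1157. The groups overlap for all 3 collagens. Decorin, DCN, was at 1119.7 and 993 CPM in skin and 1560.5 and 1142 in follicles. LUM, the related proteoglycan lumican, was at 17.2 and 7.96 CPM in skin and 40.6 and 16.9 in follicles. PDGFRA, the growth factor receptor that marks dermal fibroblasts, was at 28.1 and 17.9 CPM in skin and 26.2 and 11.3 in follicles. The groups overlap for LUM and PDGFRA as well, while both follicle libraries lay above both skin libraries for DCN. In bulk RNA, fewer cells of a type and less RNA per cell cannot be told apart. Of 28 members tested, 0 were called between follicle and skin (edgeR; 0% of all genes were called), with 1 member and 144 of 9888 genes at an unadjusted p under 0.05, and DESeq2 called 0 genes. The 1 member was COL4A2, a type IV collagen chain, at 17.0 and 15.7 CPM in follicles against 53.0 and 41.8 in skin (-1.56 ± 0.55, unadjusted p = 0.00986, adjusted p = 1.00).

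The 2 libraries labelled interfollicular epidermis also held fibroblast transcripts. DCN reached 1609.8 and 655 CPM there, which overlaps skin, and the change from skin was 0.11 ± 0.42 (adjusted p = 0.944). COL3A1 was at 883 and 378 CPM and COL1A2 at 705 and 131. COL1A1 was lower at 367 and 69.4 CPM, both below every skin and follicle library. LUM stood at 24.1 and 7.71 CPM. PDGFRA was at 21.7 and 0 CPM, the 0 being in the shallowest library. The ratio of DCN to COL1A1, a pair chosen after its values were seen and not tested, was 4.39 and 9.44 in interfollicular epidermis, the latter over 9 counts of COL1A1, against 0.684 to 1.13 in the 4 skin and follicle libraries. The keratinocyte marker list summed to 22249.6 to 38020.0 CPM in interfollicular epidermis and 18246 to 19891 in skin; the labelled epithelium and dermal transcripts were thus both present.

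Against whole skin, 3 of 28 members were lower in interfollicular epidermis and 0 higher, where 1.4% of all genes were lower, 0.162% higher and 1.56% changed either way. The median member change was -1.17, beside -0.20 over all genes. COL6A1, a chain of the microfibrillar type VI collagen, stood at 16.9 and 15.4 CPM against 158 and 79.6 in skin (-2.87 ± 0.64, adjusted p = 0.0194). DPT, dermatopontin, which binds decorin and collagen, stood at 24.1 and 0 against 148 and 103 CPM (-2.89 ± 0.68, adjusted p = 0.0322). COL4A2 had 0 counts in both epidermis libraries and 53.0 and 41.8 CPM in skin, and was at least 6.53-fold lower (adjusted p = 0.0116). COL1A1 missed the threshold (-2.44 ± 0.62, adjusted p = 0.0534). Adipocyte markers summed to 46.3 to 135 CPM in epidermis against 1030.4 to 1042 in skin (4 of 6 tested lower), smooth muscle and pericyte markers to 709 to 1146 against 2642 to 3374 (2 of 9 lower), and melanocyte markers to 0 to 125 against 449 to 583 (1 of 4 lower); their part in the lower members was not tested. With 1 library set against 2, COL6A1 was lost without skin replicate 1 (-2.27, adjusted p = 0.194), epidermis replicate 1 (-2.94, 0.318) or epidermis replicate 2 (-2.85, 0.106). COL4A2 was lost without the same 3 (adjusted p = 0.0549, 0.341 and 0.0508), and DPT without any 1 of the 4 (adjusted p 0.0618 to 0.175).

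Between follicle and interfollicular epidermis, 5 of 28 members were higher in follicles and 0 lower, where 2.05% of all genes were higher, 0.738% lower and 2.79% changed either way. Of the 22 that pass the filter on organoid libraries alone, 4 were higher; the other called member, LAMA2, entered the test through tissue. The epidermis libraries are those of the comparison with skin. COL1A1 was higher by 2.60 ± 0.63 (adjusted p = 0.0257) and COL6A1 by 2.97 ± 0.63 (adjusted p = 0.0105). FBLN2, fibulin-2 of elastic fibres, stood at 217 and 247 CPM in follicles against 48.3 and 46.3 in epidermis (2.29 ± 0.51, adjusted p = 0.0159). DPT was higher by 2.71 ± 0.68 (adjusted p = 0.0341). LAMA2, the laminin α2 chain, stood at 31.4 and 18.2 CPM in follicles and had 0 counts in epidermis, at least 3.42-fold higher in follicles (adjusted p = 0.0485). DCN did not pass (0.24 ± 0.42, adjusted p = 0.831). Of the other matrix genes, COL11A1 and COL5A1, fibril collagens, were higher in follicles by 2.11 and 1.89, as were NID1, a basement membrane linker, by 2.76 and SFRP1, a secreted Wnt inhibitor, by 1.78. Those counts were 2 of 24 other interstitial matrix genes, 1 of 9 other basement membrane genes, 1 of 12 other fibroblast and papilla genes and 0 of 14 collagen processing genes. LAMA2 and DPT lost their calls without any 1 of the 4 libraries, and LAMA2 was also lost under DESeq2 (adjusted p = 0.117), DESeq2 size factors (0.059), library totals (0.0647) and the replicate block (0.0806). Without epidermis replicate 2, 0 members were called, without follicle replicate 1 it was 1, and without follicle replicate 2 or epidermis replicate 1 it was 2. Summed endothelial markers were 50.7 to 61.7 CPM in interfollicular epidermis and 149.9 to 168 in follicles, and immune markers 748 to 784 and 132 to 262 (2 of 6 tested lower in follicles). Adipocyte markers were 46.3 to 135 CPM in epidermis and 623 to 1144 in follicles (4 of 6 higher), melanocyte markers 0 to 125 and 628 to 1057 (1 of 4 higher), and keratinocyte markers 22249.6 to 38020.0 and 14714 to 16265 (4 of 17 lower). The part of these markers in the differences was not tested.

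Follicle organoids in expansion medium held little of the type I and type III collagen RNA of follicles. COL1A1 was at 23.5, 27.0 and 21.0 CPM in early organoids with the inhibitor, 8.09 and 8.97 in later ones, 62.7 and 23.1 in early organoids without it and 13.2 and 8.77 in later ones. COL1A2 was at 14.8, 17.3 and 19.6, 13.2 and 16.9, 54.7 and 24.9 and 19.4 and 16.3 CPM in the same order of groups. Every organoid library lay below both follicle libraries for both type I chains. COL3A1 was at 14.8, 63.3 and 30.8 CPM early with the inhibitor, 11.04 and 13.0 later with it, 241 and 62.3 early without it and 12.7 and 10.02 later without it. DCN was at 19.5, 16.7 and 25.5 CPM early with the inhibitor and 15.5 and 13.0 later, and at 123 and 115 early and 13.2 and 15.4 later without it. Both early cultures without the inhibitor were the highest for DCN, and 1 of them was for COL3A1, all still below the follicle. LUM ran from 0 to 2.67 CPM over the 9 libraries, with 12 counts in all. PDGFRA had 6 counts in all, in 2 of the 3 early libraries with the inhibitor, and 0 in the other 7 follicle organoid libraries.

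**Figure D2:**
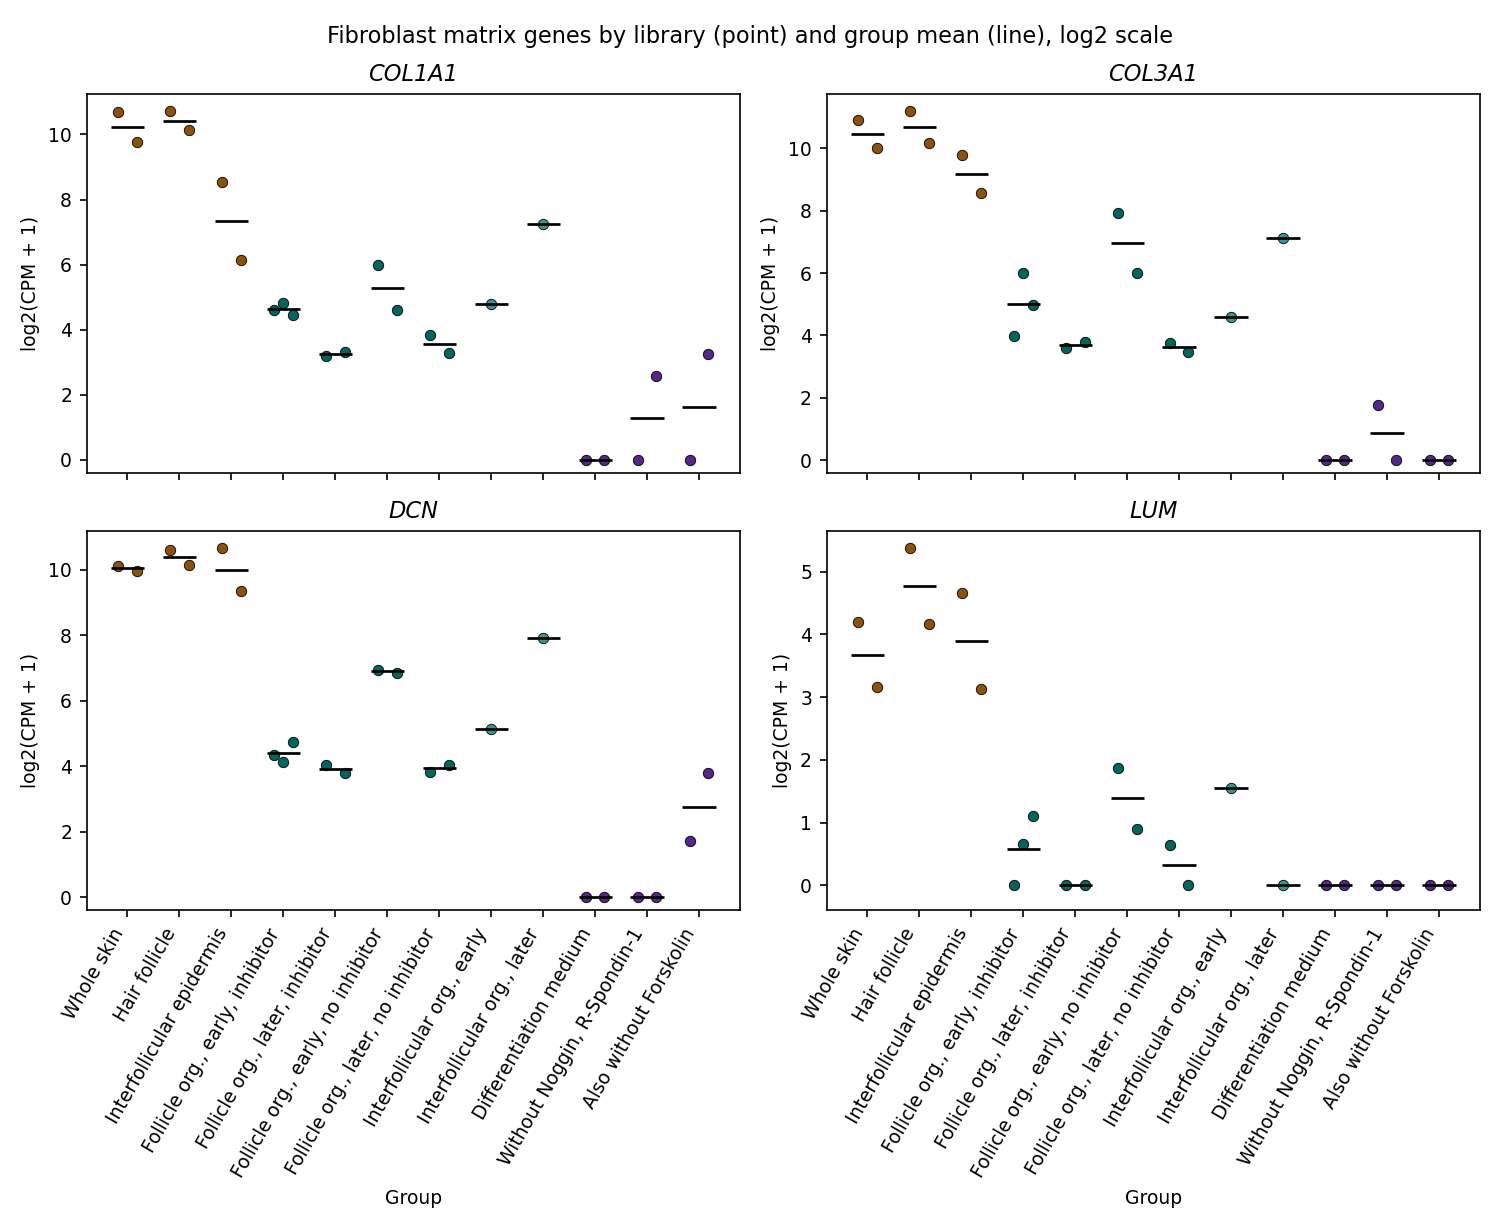
Level of COL1A1, COL3A1, DCN and LUM (vertical axis, log2(CPM + 1)) in every library (points) of the 12 groups (horizontal axis), with the group mean of the log values as a line. Every skin and follicle library lies above every organoid library for each gene. Early organoids without the inhibitor and the later interfollicular organoid library sit in between for DCN. Most differentiation points are at 0, while single points for DCN and COL1A1 come close to later follicle organoids.

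Of the 28 members tested, 25 were lower in the 9 organoid libraries than in the 2 follicle libraries and 0 higher, where 19% of all genes were lower, 9.06% higher and 28% changed either way. The median member change was -4.36, beside 0.00 over all genes. The groups did not overlap for 25 members, all lower, against 19.7% of all genes. Of the 22 members that pass the filter on organoid libraries alone, 19 were lower. The count, the median and the number without overlap over the 28 give no support of their own, since 6 of them entered the test through tissue. Among those 22, in role order, 7 of 8 interstitial collagens, 2 of 4 basement membrane genes, 5 of 5 proteoglycans and fibril organisers, 3 of 3 elastic fibre genes and 2 of 2 cell surface and cytoskeleton genes were lower, where 13.2% of the 8510 genes that pass on organoid libraries alone were lower. COL1A1 changed by -6.32 ± 0.41 on the log2 scale (21.6 against 1403 CPM on average, adjusted p = 1.8e-10), COL1A2 by -5.82 ± 0.42 and COL3A1 by -5.89 ± 0.43. COL6A1 changed by -4.92, COL6A3, another type VI chain, by -4.24, and COL14A1, which sits on fibril surfaces, by -4.47.

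Among the proteoglycans and fibril organisers, DCN changed by -5.66 ± 0.29 on the log2 scale (42.0 against 1351 CPM on average, adjusted p = 1.79e-11). LUM changed by -5.83, DPT by -5.49, MGP, the calcification inhibitor matrix Gla protein, by -5.79, and POSTN, periostin, by -5.11. The elastic fibre genes changed by -5.59 (FBLN2), -3.91 (FBN1, fibrillin-1 of microfibrils) and -2.25 (FBLN1, fibulin-1). Of the basement membrane genes, LAMA2 changed by -4.64, COL15A1 by -3.92 and COL4A1 by -2.38. PDGFRA changed by -6.64 ± 0.82, PDGFRB, the receptor of pericytes and fibroblasts, by -3.65, and TWIST2, a mesenchymal transcription factor, by -3.64. THY1, a fibroblast surface protein, changed by -2.99. VIM, the filament protein of mesenchymal cells, stood at 627 and 538 CPM in follicles and at 8.07 to 133 in organoids, and changed by -4.84 ± 0.33. FBLN1 stood at 111 and 45.2 CPM in follicles, 20.9, 8.06 and 11.4 early and 25.8 and 10.96 later with the inhibitor, and 6.67 and 16.1 early and 26.5 and 16.7 later without it. The calls of PDGFRA, PDGFRB and TWIST2 were lost under DESeq2 (adjusted p = 0.384, 0.0615 and 0.145), and that of PDGFRB also without follicle replicate 2 (adjusted p = 0.149).

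**Figure D3:**
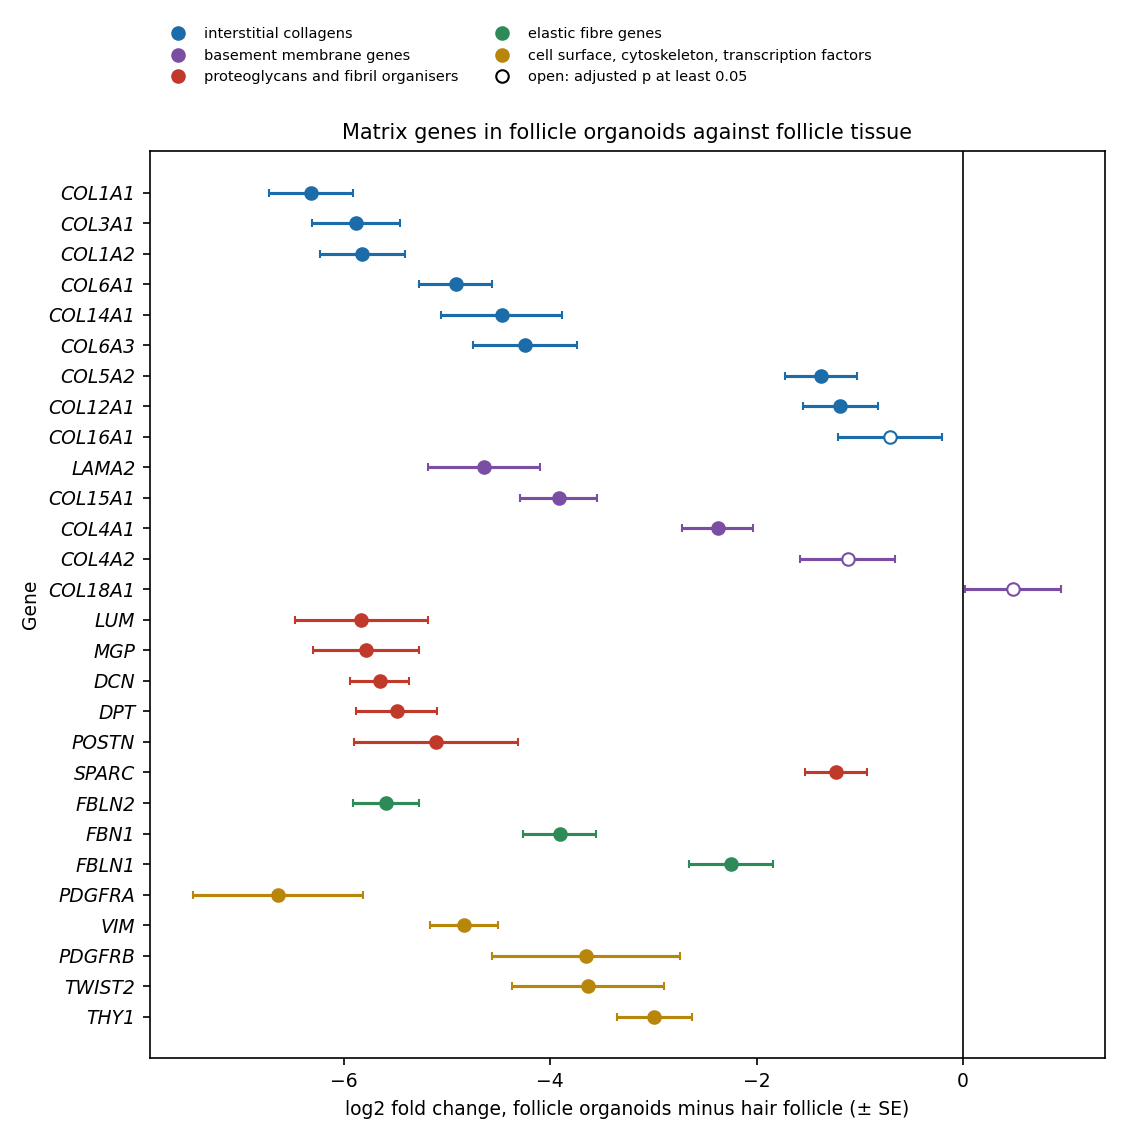
Log2 fold change ± SE (horizontal axis) of each of the 28 tested genes (vertical axis, colour by role) between 9 follicle organoid libraries and 2 follicle libraries, with open points for an adjusted p of at least 0.05. Most genes lie between -7 and -2, while COL5A2, SPARC, COL12A1, COL16A1, COL4A2 and COL18A1 lie nearest to 0.

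A smaller set of members was still well counted in organoids. SPARC, a collagen-binding secreted protein, stood at 621 and 503 CPM in skin and 765 and 586 in follicles, and interfollicular epidermis had 410.3 and 370.1 CPM. In follicle organoids it was at 153, 102 and 139.5 CPM early and 313 and 424 later with the inhibitor, and at 279 and 433 early and 412 and 385 later without it. Those values lie below the follicle but overlap interfollicular epidermis, and the change from the follicle was -1.23 ± 0.30 (adjusted p = 0.00328). COL5A2, a type V collagen chain that helps start fibrils, stood at 268 and 180.0 CPM in follicles, at 106, 32.2 and 48.6 early and 79.5 and 94.7 later with the inhibitor, and at 85.3 and 95.05 early and 52.7 and 175 later without it. The change was -1.37 ± 0.35 (adjusted p = 0.00497), with every organoid library below both follicle libraries. COL18A1, a basement membrane collagen whose end is cleaved to endostatin, stood at 19.6 and 23.8 CPM in follicles, at 30.9, 39.1 and 40.4 early and 36.8 and 23.9 later with the inhibitor, and at 37.3 and 41.9 early and 27.9 and 12.1 later without it. It was not called (0.49 ± 0.47, adjusted p = 0.469), and the groups overlap. COL12A1, a collagen on fibril surfaces, overlapped the follicle and was called (-1.19 ± 0.37, adjusted p = 0.0185). This contrast averages over both media. COL12A1 libraries without the inhibitor lay near the follicle, and those with it lay well below. COL16A1, a collagen found near the epidermal junction, was at 32.7 and 30.7 CPM in follicles and 5.43 to 46.0 in organoids (-0.70 ± 0.51, adjusted p = 0.324). COL4A2 was at 17.0 and 15.7 CPM in follicles and 3.99 to 11.3 in organoids (-1.12 ± 0.46, adjusted p = 0.0752). Without follicle replicate 1 the calls were lost for COL5A2 (-1.06, adjusted p = 0.141), SPARC (-1.03, 0.0944), COL12A1 (-0.81, 0.286) and FBLN1 (-1.48, 0.06).

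The summed level of the listed members was 10199.5 and 6633 CPM in follicles and 437 to 1225 in follicle organoids. SPARC, COL5A2 and COL18A1, grouped after their values were seen, held 10.3 and 11.9% of the sum in follicles, 32.8 to 80.5% in follicle organoids and 72.5 to 86.0% in the differentiation media. In the gene order of the UU_Cfam_GSD_1.0 table, COL3A1 and COL5A2 are next protein-coding neighbours on chromosome 36, and their changes were -5.89 ± 0.43 and -1.37 ± 0.35. LUM and DCN on chromosome 15 changed by -5.83 and -5.66, and COL4A1 and COL4A2 on chromosome 22 by -2.38 ± 0.34 and -1.12 ± 0.46. These differences between neighbours were not tested.

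**Figure D4:**
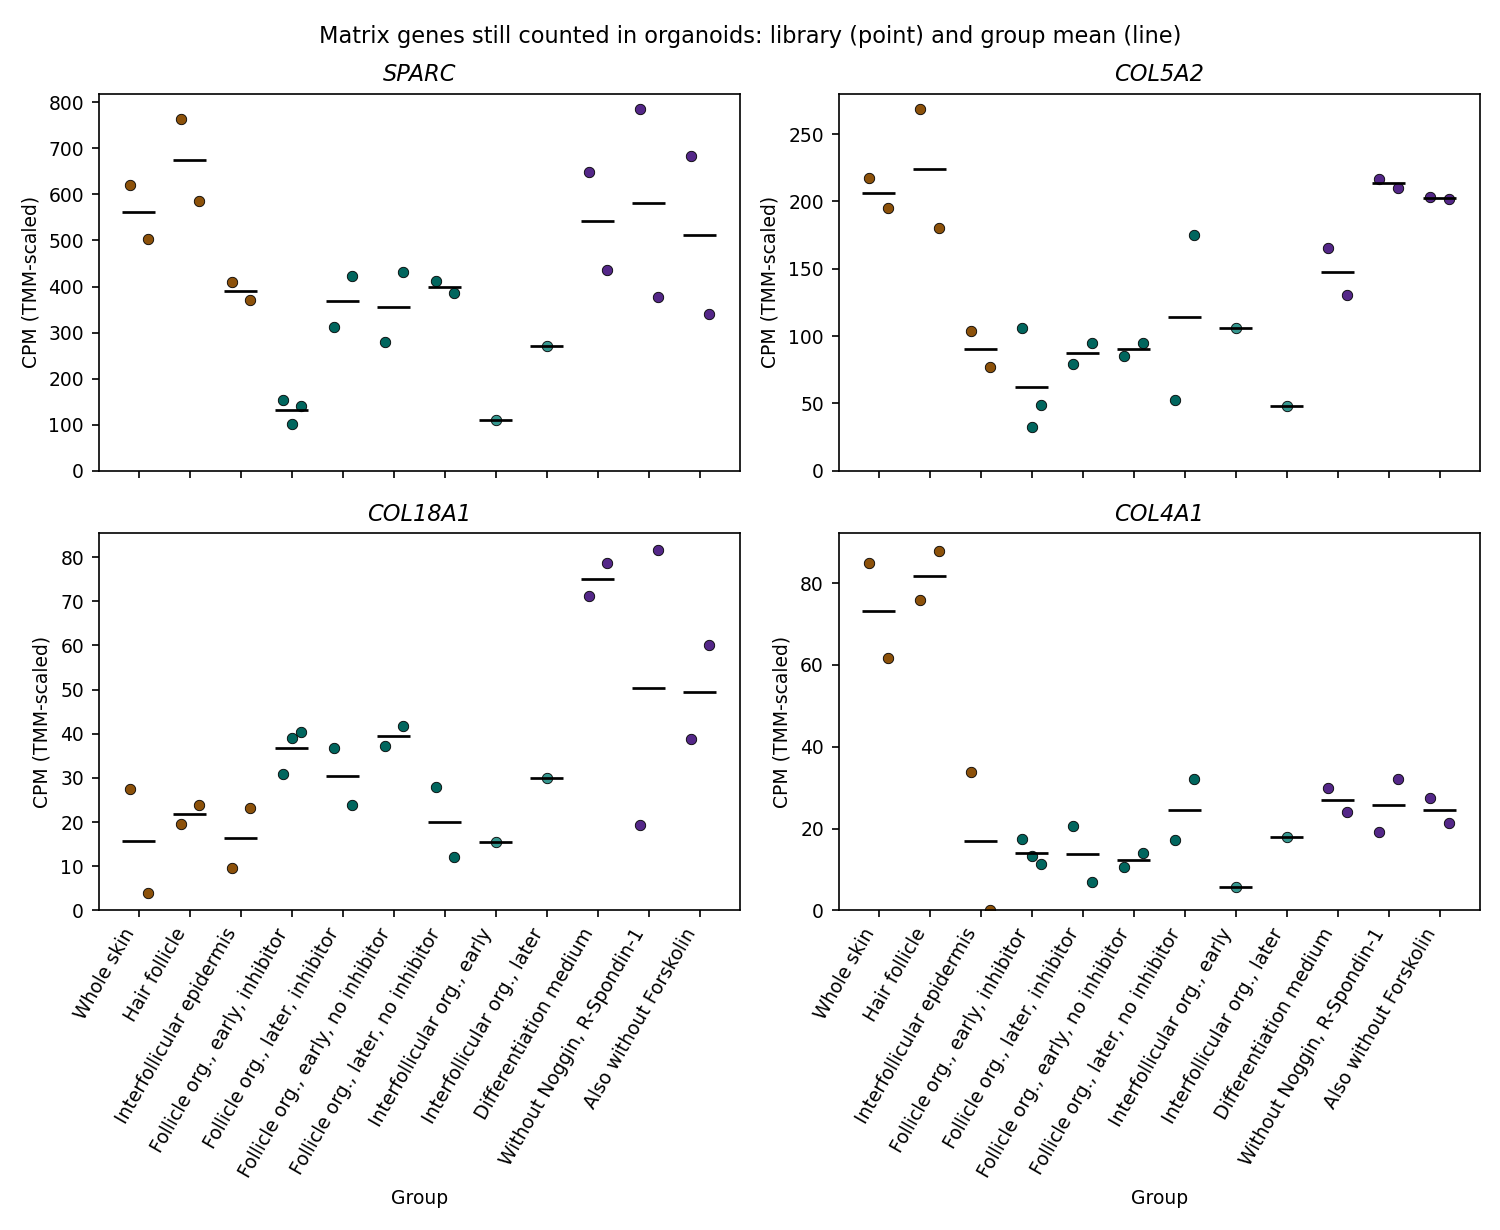
Level of SPARC, COL5A2, COL18A1 and COL4A1 (vertical axis, CPM on a linear scale from 0) in every library (points) of the 12 groups (horizontal axis), with the group mean as a line. Every organoid and differentiation library holds counts of all 4 genes, and 5 of the 6 differentiation libraries lie above both later libraries without inhibitor for COL18A1.

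The companion lists are counted over the genes that pass the filter on organoid libraries alone. Of 10 such collagen processing genes, 4 were higher and 2 lower in follicle organoids than in follicles. The 4 higher, named after their values were seen, act inside the cell on collagen hydroxylation and folding: P4HB rose by 1.02 ± 0.27 and SERPINH1, the collagen chaperone HSP47, by 1.09 ± 0.36, with P4HA1 and P4HA2, the catalytic subunits of prolyl 4-hydroxylase, by 1.43 and 1.42. The 3 with the smallest p were lower: CTSK, cathepsin K, at -3.60 ± 0.36, PCOLCE, a procollagen C-proteinase enhancer, at -4.16 ± 0.49, and ADAMTS2, which removes the procollagen N-propeptide, at -5.76 ± 0.66. Of 9 other interstitial matrix genes, 6 were lower and 2 higher. Those with the smallest p over all tested were COL11A1 (-6.14), ECM2 (-5.24) and MFAP5 (-6.89), a microfibril protein. Of the latent Tgf-beta binding proteins, named after their values were seen, LTBP1 (2.48) and LTBP2 (2.04) were higher and LTBP3 (-1.89) and LTBP4 (-3.07) lower. Of 8 other basement membrane genes 3 were lower and 0 higher, and the smallest p were those of NID1 (-4.52), LAMA4 (-5.31) and LAMB1 (-2.26). Of 7 other fibroblast and papilla genes 4 were lower and 1 higher, PDPN (2.76), the membrane protein podoplanin, and the smallest p were those of SERPINF1 (-6.34), DPP4 (-6.09) and PRRX1 (-4.66). PCOLCE, ADAMTS2, ECM2, MFAP5, LTBP4, LAMA4, SERPINF1, DPP4 and PRRX1 passed only through tissue. A lower level in organoids than in some tissue library was thus built into their selection. Summed keratinocyte markers were 14714 to 16265 CPM in follicles and 57425 to 87758 in follicle organoids, with 7 of 16 passing genes higher and 0 lower. Smooth muscle and pericyte markers were 1974 to 2587 CPM in follicles and 68.7 to 242 in organoids (7 of 7 passing genes lower), melanocyte markers 628 to 1057 and 7.48 to 269 (3 of 3), adipocyte markers 623 to 1144 and 76.6 to 657 (3 of 4), Schwann markers 110.4 to 153 and 3.38 to 18.2 (2 of 2), endothelial markers 149.9 to 168 and 7.98 to 21.5 (1 of 1) and immune markers 132 to 262 and 2.99 to 12.1 (1 of 1). The part of cell make-up in the fall of the members was not tested.

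The Tgf-beta inhibitor was asked about next, since Tgf-beta is a known driver of matrix gene expression. COL12A1, a collagen that decorates fibrils, stood at 49.3 and 45.8 CPM in early and 38.9 and 26.3 in later organoids without the inhibitor. With it, COL12A1 stood at 7.399, 7.48 and 9.12 CPM early and 2.94 and 6.98 later. The 4 libraries without the inhibitor were all above the 5 with it, and lay near the 45.8 and 27.6 CPM of follicles. The change was -2.64 ± 0.36 (adjusted p = 0.000285, n = 5 and 4), and COL12A1 stayed called in all 15 other settings run. It was also the 1 member whose groups did not overlap; 3.54% of all genes were lower without overlap. In total 3 of 28 members were lower with the inhibitor and 0 higher, where 0.758% of all genes were lower, 1.92% higher and 2.68% changed either way. The median member change was -0.60, beside 0.00 over all genes.

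DCN and VIM were the other 2 members lower with the inhibitor. DCN was 123 and 115 CPM in early organoids without the inhibitor and 19.5, 16.7 and 25.5 in early organoids with it, but 13.2 and 15.4 and 15.5 and 13.0 in later ones. Over both passages the change was -1.26 ± 0.32 (adjusted p = 0.0387), and the later groups overlap. VIM was 133 and 27.9 CPM in early organoids without the inhibitor and 8.07, 13.8 and 10.7 with it, and 16.9 and 13.4 against 10.3 and 15.9 later (-1.53 ± 0.37, adjusted p = 0.0265). Each kept its call in 7 of 15 other settings. Leaving out early replicate 1 without the inhibitor gave VIM, whose call was lost for 6 of 9 single libraries, a change of -0.80 (adjusted p = 0.278). That library held VIM at 133 CPM and melanocyte markers at 269 CPM in sum, against 9.16 in early replicate 2 and 7.48 to 12.1 in the early libraries with the inhibitor; the part of these markers in the VIM result was not tested. For DCN, leaving out 1 library lost the call in 8 of 9 cases, the changes over all settings running from -1.39 to -1.19, with adjusted p up to 0.161. The difference of the inhibitor's effect between later and early organoids was itself tested: 0 of 28 members were called (edgeR; 0% of all genes), 4 members and 267 of 9888 genes had an unadjusted p under 0.05, and DESeq2 called 0 members and 1 gene. Those 4 were DCN (2.50 ± 0.64, unadjusted p = 0.000901), VIM (2.60 ± 0.74, 0.0022), SPARC (1.32 ± 0.56, 0.0268) and COL3A1 (2.11 ± 0.94, 0.0378), each with an adjusted p of 1.00.

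Of the fibrillar collagens among the members, COL1A1 changed by -0.59 ± 0.46 (adjusted p = 0.619) and COL3A1 by -0.99 ± 0.47 (adjusted p = 0.347), and neither passed. Among the other interstitial matrix genes, 5 of 24 tested were lower with the inhibitor and 0 higher. COL5A1, the partner chain of COL5A2 in type V collagen, stood at 109 and 129.9 CPM early and 123 and 104 later without the inhibitor, and at 20.9, 28.8 and 36.7 early and 16.9 and 17.9 later with it. The groups do not overlap (-2.37 ± 0.31, adjusted p = 0.000248). COL5A2 itself did not pass (-0.47 ± 0.33, adjusted p = 0.57). MATN2, a matrilin adaptor protein, changed by -2.32 ± 0.40 and CCDC80, a matrix-associated secreted protein, by -2.12 ± 0.39. In the remaining lists, 0 of 14 collagen processing genes, 0 of 9 other basement membrane genes and 0 of 12 other fibroblast and papilla genes were called in either direction.

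**Figure D5:**
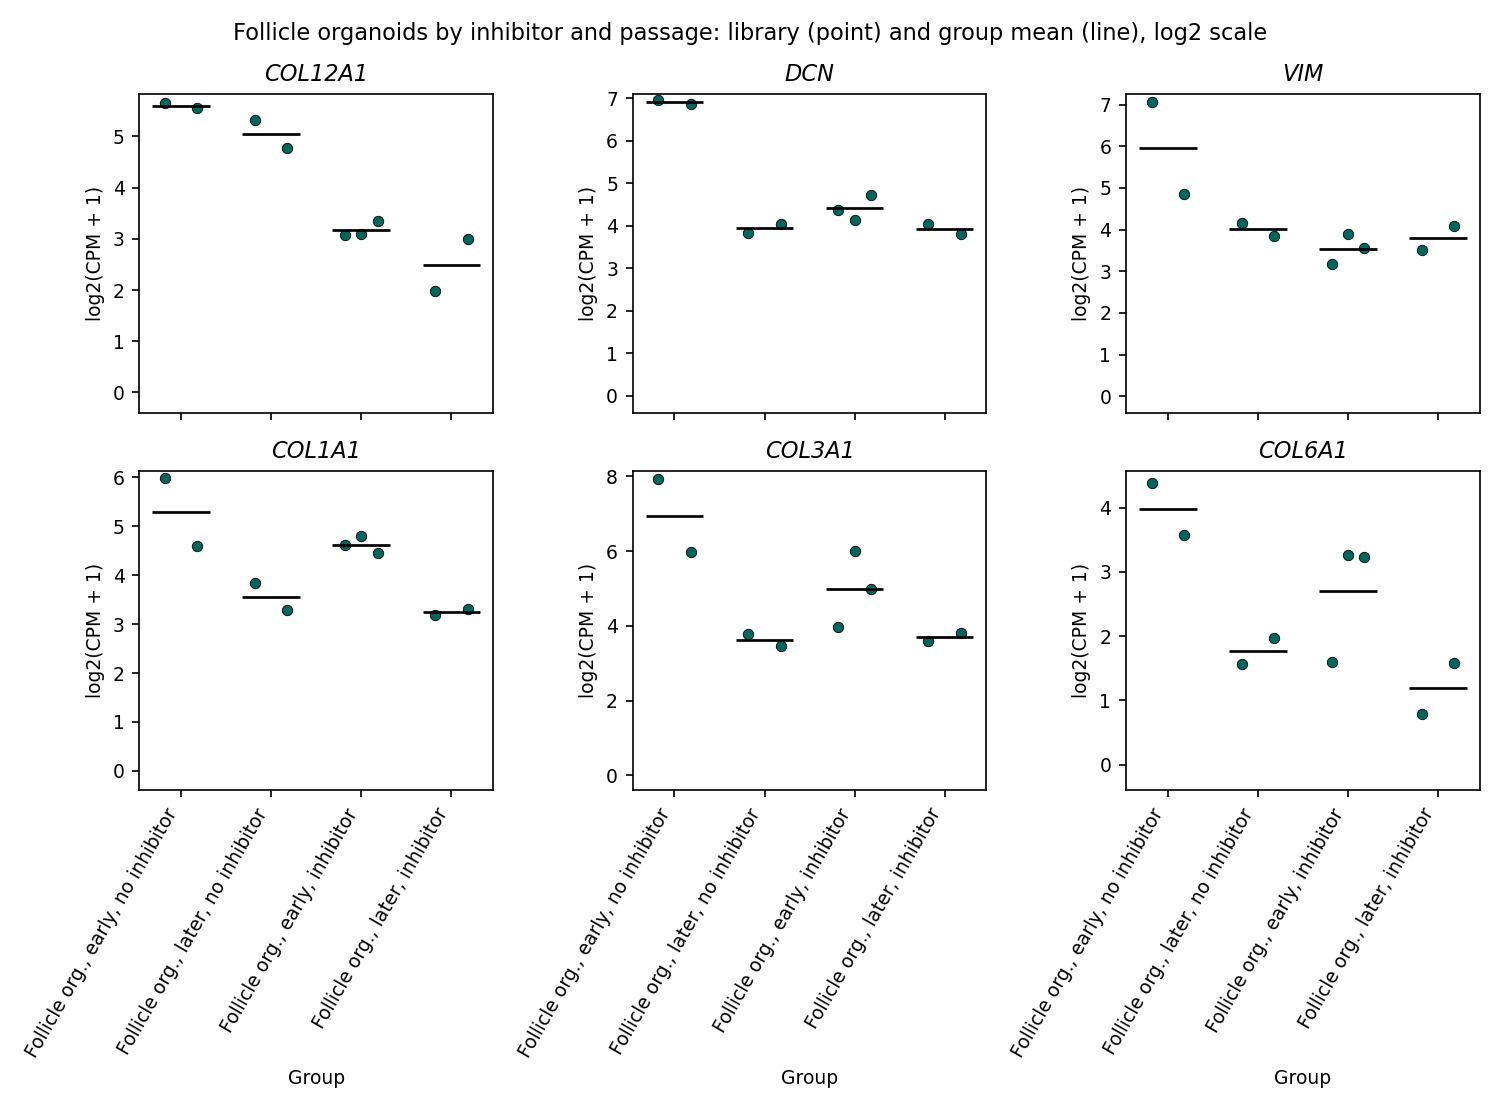
Level of COL12A1, DCN, VIM, COL1A1, COL3A1 and COL6A1 (vertical axis, log2(CPM + 1)) in the 9 follicle organoid libraries (points) by inhibitor and passage (horizontal axis), with the group mean of the log values as a line. COL12A1 separates by inhibitor at both passages, whereas DCN is high in both early libraries without the inhibitor and VIM in 1 of them.

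Later follicle organoids were compared with early ones over both media, in the same 9 libraries. COL3A1 was lower in later organoids, with 11.04, 13.0, 12.7 and 10.02 CPM in the 4 later libraries against 14.8, 63.3, 30.8, 241 and 62.3 in the 5 early ones (-2.65 ± 0.49, adjusted p = 0.0155). DCN was lower too, at 15.5, 13.0, 13.2 and 15.4 CPM against 19.5, 16.7, 25.5, 123 and 115 (-1.79 ± 0.32, adjusted p = 0.0143). All later libraries lay below all early ones for both genes. COL6A1 stood at 0.736, 1.99, 1.97 and 2.92 CPM later against 2.02, 8.63, 8.43, 20.0 and 10.9 early (-2.42 ± 0.50, adjusted p = 0.0353), with an overlap. These were 3 of 28 members lower and 0 higher, where 0.182% of all genes were lower, 0.172% higher and 0.354% changed either way. The groups did not overlap for 4 members, all lower (1.73% of all genes): COL3A1, DCN, COL1A1 (-1.68 ± 0.47, adjusted p = 0.205) and THY1 (-1.09 ± 0.41, adjusted p = 0.479), the last pair not past the threshold. SPARC stood higher in later organoids (0.82 ± 0.28, adjusted p = 0.377), and COL5A2 changed by 0.41 ± 0.33 (adjusted p = 0.883), neither past the threshold. In the companion lists, 0 of 14 collagen processing, 0 of 24 other interstitial matrix, 0 of 9 other basement membrane and 0 of 12 other fibroblast and papilla genes were called. Leaving out any 1 of the 4 later libraries or early replicate 1 without the inhibitor gave 0 called members, and leaving out early replicate 2 without it or early replicate 3 with it gave 1 (largest adjusted p 0.131 for COL3A1, 0.139 for DCN and 0.245 for COL6A1), and the changes of the 3 genes over all settings ran from -2.99 to -1.69.

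Organoids from interfollicular epidermis were set against that tissue with 2 libraries on each side and no replicate within either organoid group, which the fit takes to vary as much as the replicated groups do. The early library held COL1A1 at 26.9 CPM, COL1A2 at 42.3, COL3A1 at 23.1 and DCN at 34.6. The later library held them at 150.3, 150.3, 138 and 240.5 CPM, which were all higher. LUM was at 1.92 and 0 CPM and PDGFRA at 0 in both. In total 5 of 28 members were lower in the organoids and 0 higher, where 4.5% of all genes were lower, 6.78% higher and 11.3% changed either way. All 5 are among the 22 that pass the filter on organoid libraries alone. The median member change was -2.16, beside -0.14 over all genes. That median gives no support of its own, since it includes the 6 members that entered the test through tissue. VIM stood at 13.5 and 42.1 CPM in the organoids against 311 and 208 in epidermis, and FBLN2 at 3.85 and 24.0 against 48.3 and 46.3. DCN changed by -3.64 ± 0.49 (adjusted p = 9.04e-05), VIM by -3.47 ± 0.62 (adjusted p = 0.000839) and COL3A1 by -3.50 ± 0.73 (adjusted p = 0.00395). COL1A2 changed by -2.44 ± 0.68 (adjusted p = 0.0244) and FBLN2 by -2.29 ± 0.73 (adjusted p = 0.0487). Without epidermis replicate 1, COL1A2 was no longer called (-0.70, adjusted p = 0.655), nor COL3A1 (-2.73, 0.0756) or FBLN2 (adjusted p = 0.243). SPARC stood at 109.6 CPM early and 271 later against 410.3 and 370.1 in epidermis, and did not pass (-1.18 ± 0.44, adjusted p = 0.0863). COL5A2 stood at 106 and 48.1 CPM against 104 and 77.1 (-0.38 ± 0.59, adjusted p = 0.727). Of the companion genes, 2 of 14 collagen processing genes were higher and 1 lower, with CTSK at -2.37, PPIB, a collagen-folding cyclophilin, at 1.97 and P4HB at 1.10. Of 9 other interstitial matrix genes that pass on organoid libraries alone 1 was higher, LTBP1 (3.31), and 2 lower; SPARCL1 (-3.88) and MFAP5, also lower, passed only through tissue. COL11A1, 1 of the 2 lower genes that pass on organoid libraries alone and named after its values were seen, overlapped the tissue. It stood at 0 CPM early and 42.1 later against 84.5 and 7.71 in epidermis, the last from 1 count. Of 9 other basement membrane genes COL4A5 was lower (-1.91), and of 12 other fibroblast and papilla genes SFRP1 (1.55) and ALPL were higher. With the early interfollicular library alone, chosen after seeing the data, 6 members were called, and the changes were -5.04 for DCN (adjusted p = 0.000632), -4.79 for COL3A1 (0.0111), -4.28 for VIM (0.00454), -3.59 for FBLN2 (0.0317) and -3.35 for COL1A2 (0.0355). Immune markers summed to 748 to 784 CPM in epidermis against 19.2 and 90.2 in the early and later organoids, and smooth muscle and pericyte markers to 709 to 1146 against 104 and 541; their part in these differences was not tested.

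Against follicle organoids with the inhibitor, the 2 interfollicular libraries were higher for 3 of 28 members and lower for 0, where 5.86% of all genes were higher, 0.516% lower and 6.37% changed either way. They were DCN (2.40 ± 0.40, 138 against 17.4 CPM on average, adjusted p = 0.000441), COL1A2 (2.30 ± 0.58, adjusted p = 0.0162) and COL1A1 (2.15 ± 0.59, adjusted p = 0.031). The result rests on the later interfollicular library. With the early interfollicular library alone, a comparison chosen after seeing the data, 0 members were called, and the changes were 1.00 for DCN (adjusted p = 0.839), 1.38 for COL1A2 (0.838) and 0.92 for COL1A1 (0.973). The later library also held more of other markers: immune 90.2 CPM in sum against 19.2 in the early one, smooth muscle and pericyte 541 against 104, and melanocyte 78.2 against 25.0. Its total was 222051 counts against 474823. Among the follicle organoids, leaving out later replicate 1 left DCN alone called (COL1A1 0.0982, COL1A2 0.0676, adjusted p), and leaving out later replicate 2 or early replicate 3 lost COL1A1 (0.0777 and 0.0537). The part of these markers and of depth in the result was not tested.

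In the 6 differentiation libraries the defining fibroblast genes had no or few counts. COL1A1 was at 0 and 0 CPM in differentiation medium, 0 and 4.94 without Noggin and R-Spondin-1, and 0 and 8.59 also without Forskolin. COL1A2 was at 0 and 0, 7.23 and 0 and 0 and 4.30 CPM, COL3A1 at 0 and 0, 2.41 and 0 and 0 and 0, and DCN at 0 and 0, 0 and 0 and 2.28 and 12.9, in the same order. LUM and PDGFRA had 0 counts in all 6 libraries. These libraries had 237864 to 694104 counts, so on unscaled totals a count of 0 allows 4.35 to 12.7 CPM in a single library. The comparison with the 2 later organoid libraries without inhibitor therefore rests on summed counts. COL1A1 had 4 counts over the 6 differentiation libraries against 68 over the 2 expansion libraries, COL1A2 4 against 108, DCN 4 against 84 and COL3A1 1 against 69.

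The 4 genes were called lower: COL1A1 changed by -3.55 ± 1.05 (adjusted p = 0.0296), COL1A2 by -4.38 ± 1.03 (0.00799), DCN by -5.11 ± 0.88 (0.000773) and COL3A1 by -5.54 ± 1.36 (0.0111), for which the ratio of counts per total was 28.7 with a counting interval of 4.98 to 1149 at 95%. All 6 differentiation libraries lay below both expansion libraries for each of them, as for 17.4% of all genes. For COL1A1 and DCN the highest differentiation library lay only just below the lowest expansion library. Same-numbered differentiation libraries deviated together (correlations 0.337 to 0.44), so the 6 may not be independent, though the fit treats them so. COL18A1 was higher, at 71.2 and 78.8 CPM in differentiation medium, 19.3 and 81.5 without Noggin and R-Spondin-1 and 38.8 and 60.2 also without Forskolin, against 27.9 and 12.1 in expansion medium (1.47 ± 0.48, adjusted p = 0.0441), with 1 differentiation library below an expansion library. Thus 4 of 27 tested members were lower and 1 higher, where 10.1% of all genes were lower and 4.4% higher (14.5% either way). COL18A1 kept its call in 7 of 15 other settings and lost it without expansion replicate 2 (1.02, adjusted p = 0.327) or without replicate 2 lacking Noggin and R-Spondin-1 (1.01, adjusted p = 0.158). Without expansion replicate 1, COL1A1 (-3.17, adjusted p = 0.162), COL1A2 (adjusted p = 0.0505) and COL3A1 (adjusted p = 0.0598) were lost, and DCN was the 1 member called. COL1A1 kept its call in 10 of 15 other settings, and was also lost on the compared groups alone (adjusted p = 0.0686), without expansion replicate 2 (0.0556), without differentiation medium replicate 1 (0.0708) and without replicate 1 also lacking Forskolin (0.0572). The differentiation libraries come from tables with another list of entries than the expansion libraries, so medium and table cannot be told apart.

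Several other members were still counted in the differentiation media, and none of those named next was called. SPARC stood at 648 and 435 CPM in differentiation medium, 785 and 378 without Noggin and R-Spondin-1 and 684 and 339 also without Forskolin, against 412 and 385 in expansion medium (0.45 ± 0.34, adjusted p = 0.394). COL5A2 stood at 166 and 130.1, 217 and 209.9 and 203 and 202 CPM against 52.7 and 175 (0.71 ± 0.41, adjusted p = 0.252). FBLN1 stood at 31.5 and 85.6, 19.3 and 61.7 and 38.8 and 21.5 CPM against 26.5 and 16.7 (0.92 ± 0.50, adjusted p = 0.222). COL4A1 was at 19.3 to 32.1 CPM, against 17.2 and 32.2 (0.09 ± 0.43, adjusted p = 0.919). VIM was at 11.6 and 17.1, 9.63 and 14.8 and 4.56 and 12.9 CPM against 16.9 and 13.4 (-0.48 ± 0.51, adjusted p = 0.554). COL12A1 was at 8.28 and 10.3 CPM in differentiation medium, 19.3 and 12.3 without Noggin and R-Spondin-1 and 20.5 and 51.6 also without Forskolin, against 38.9 and 26.3 (-0.95 ± 0.41, adjusted p = 0.118). Of the companion genes, 3 of 21 other interstitial matrix genes were higher and 1 lower: CCDC80 (2.11 ± 0.42, 145 against 29.1 CPM on average) and LTBP3 (1.97 ± 0.45) rose, FBN2, fibrillin-2, fell (-5.19 ± 1.39), and COL5A1, named after its value was seen, rose (1.18 ± 0.37, 258 against 114 CPM on average). Of 9 other basement membrane genes, 3 were higher and 2 lower, with LAMA5, the laminin α5 chain, at -2.68 ± 0.57, COL4A5 at -1.63 ± 0.40 and AGRN, agrin, at 1.17 ± 0.30. Of 12 other fibroblast and papilla genes, 3 were higher, C1S (3.49 ± 0.61), TIMP3 (3.45 ± 1.09) and DPP4 (2.41 ± 0.80), and 0 lower. Of 14 collagen processing genes, PCOLCE2 rose (1.66 ± 0.45) and P4HA1 fell (-1.99 ± 0.58). Summed keratinocyte markers were 89521 and 31972 CPM in differentiation medium and 74233 and 49801 without Noggin and R-Spondin-1. Also without Forskolin they were 79075 and 79784 CPM, against 82006 and 87758 in expansion medium. Of 16 keratinocyte genes that pass on organoid libraries alone, 4 were lower and 0 higher. Summed smooth muscle and pericyte markers were 195 to 1044 CPM in the differentiation libraries against 68.7 to 242 in the expansion libraries. Of the 12 genes, 7 had no counts or no entry in each differentiation group, MYH11 among them, so few genes carry the sum. ACTA2 stood at 0 to 6.63 CPM in differentiation medium and 2.28 to 68.8 also without Forskolin, against 5.01 to 6.76 in expansion medium. It had 0 counts without Noggin and R-Spondin-1 alone. The part of these markers in the differences was not tested.

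Within the differentiation media, removing Noggin and R-Spondin-1 changed 0 of 27 members (edgeR; 0% of all genes), with 2 members and 260 of 9732 genes at an unadjusted p under 0.05 and 0 genes by DESeq2. The 2 were FBLN2, with 0 counts in differentiation medium and 4.82 and 7.41 CPM without the 2 factors, and COL15A1, a basement membrane zone collagen, at 3.31 and 3.42 against 14.5 and 14.8 CPM (each adjusted p = 1.00). Removing Forskolin as well changed 0 of 27 (edgeR; 0% of all genes), with 1 member and 329 genes at an unadjusted p under 0.05 and 0 genes by DESeq2. The 1 was DCN, with 0 counts before and 2.28 and 12.9 CPM after (adjusted p = 1.00). POSTN, named after its values were seen, was at 0 in 4 of the 6 libraries and reached 30.1 CPM in replicate 2 without Forskolin, the same library that held DCN at 12.9 and COL12A1 at 51.6 CPM. In that library 7 counts of POSTN, 3 of DCN and 12 of COL12A1 lie behind these levels. Smooth muscle and pericyte markers summed to 1044 CPM there, against 195 to 629 in the other 5, with only 4 of the 12 list genes detected. MYH11 was not among those 4, and the part of these markers was not tested.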

How the data were processed

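Dog tissue and organoid RNA was sequenced by CEL-seq2 from cells sorted into Trizol, per the labels' protocols. The submitters' processing notes name BWA 0.6.2-r126 and the build CanFam3.1; the counting step is not given in the sources used here. The deposited tables hold counts per gene entry, 4.91 to 10.65% of lines with a fraction whose origin is not given in the sources used here, and these deposited values were rounded and handled like expected counts. Lines that name no gene (4 entries, 0.461 to 2.158% of counts) were left out. Genes were filtered over the 12 groups and fitted once over 23 libraries in edgeR 4.0.16 (R 4.3.3; TMM scaling, quasi-likelihood test, 11 residual degrees of freedom), with p-values adjusted over 9888 genes, or 9732 where the differentiation tables enter. DESeq2 1.42.0, other scalings, no filter, a replicate block, the compared groups alone and leaving out each library were alternatives. The script was tested on simulated data. All members are named; values in every library are given for COL1A1, COL1A2, COL3A1, DCN, LUM, PDGFRA, members called between organoid groups and those averaging at least 50 CPM in an organoid group, and at most 3 called genes per companion list, by smallest p. Members and lists were chosen with earlier results of these data known.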

Additional observations from a re-analysis of the deposited data

How the results depend on the processing

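Of 52 member calls, 22 held in every setting run and 0 reversed direction. Fitted on the compared groups alone, the number of members called was 6 for interfollicular epidermis against skin, 9 for follicle against interfollicular epidermis, 1 for later against early passage, 5 for interfollicular against follicle organoids and 3 for differentiation against expansion medium. With no filter on low counts it was 10 for follicle against interfollicular epidermis, 9 for interfollicular organoids against their tissue, 6 for passage and 5 for interfollicular against follicle organoids. Scaling by library totals gave 3 for follicle against interfollicular epidermis and 8 for interfollicular organoids against their tissue, and DESeq2 gave 8 for the latter. The early interfollicular organoid library alone, added after seeing the data, gave 0 against follicle organoids. Leaving out 1 library gave 0 to 2 members for epidermis against skin, 0 to 2 for follicle against epidermis, 21 to 26 for follicle organoids against follicle, 3 to 5 for interfollicular organoids against their tissue, 1 to 2 for the inhibitor, 0 to 4 for passage, 1 to 3 for interfollicular against follicle organoids and 1 to 6 for the differentiation media. Replicate numbers did not pair the libraries over the series: of 90 same-number pairs from different groups, 12 had a correlation over 0.1 (median -0.00497). Their correlations ran from -0.335 to 0.44. Some differently numbered libraries deviated together as well. Early follicle organoid replicate 2 with the inhibitor correlated at 0.335, 0.323 and 0.26 with replicate 1 of the 3 differentiation groups. Replicate 1 of that organoid group correlated at 0.312, 0.323 and 0.285 with replicate 2 of those groups. Between groups of 2 libraries both same-number pairs give the same value, since deviations from a mean of 2 mirror each other. These pairs are therefore not separate evidence. All 6 pairs within the differentiation groups were over 0.1, but hold only the values 0.337, 0.367 and 0.440, each occurring for both replicates. The labels tie no numbers together. A replicate block fitted on those 6 libraries alone, added after seeing the data, called 0 members without Noggin and R-Spondin-1 and 0 without Forskolin, as did the block over all libraries. With the block over all libraries, passage and interfollicular against follicle organoids each had 1 called member, and COL18A1 was not called in the differentiation media (adjusted p = 0.0682). Scaling by library totals in place of TMM moved the median log2 change of all genes from -0.14 to -0.70 for interfollicular organoids against tissue, from -0.20 to 0.04 for epidermis against skin, from 0.21 to -0.10 for follicle against epidermis, from 0.00 to -0.18 for follicle organoids against follicle and from 0.00 to -0.13 for the inhibitor. The causes of these changes were not tested. Depth limits the interfollicular and differentiation libraries, where a count of 0 allows 4.35 to 35.5 CPM on unscaled totals.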
